A study of Mus musculus with 10 samples.

Results

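The Gimap genes (GTPases of the immunity associated protein family) were followed across thymus libraries of mice that lacked 1 or both copies of Usp7. The 8 genes described here, Gimap1, Gimap3, Gimap4, Gimap5, Gimap6, Gimap7, Gimap8 and Gimap9, are the features of the count table whose Ensembl identifiers carry these symbols, and they are 8 of 35375 features. The family was selected on the counts of homozygous knockouts and wild types, in which Gimap8 was lower in the knockouts, so the values of that comparison are given as a description without a test. All 8 members were kept by the filter on low counts, which left 19511 genes to test.

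Each library was made from the thymus of a C57BL/6J mouse 3 days after birth. The homozygous KO group (n = 3) lacked both alleles of Usp7 in the hematopoietic system, the heterozygous KO group (n = 3) lacked 1 allele there, and 4 animals were wild type. The wild types were a mixture of animals with and without Cre induction, and the labels do not say which library is which. The titles of wild types 1 and 2 hold the word wt a further time, and the count columns of wild types 3 and 4 carry the word het, which their titles lack. The titles, which call all 4 wild type, were followed, and the meaning of het there is not given in the sources used here. The Cre driver, the share of cells that recombined and the Cre status of each animal are not given in the sources used here. By the labels the deletion was aimed at blood cells, so stromal cells of the thymus may still carry Usp7. USP7 (also called HAUSP) is a deubiquitinase. Its mRNA checks the labels: in CPM (a gene's count relative to the library's total, scaled by TMM), the homozygous KO thymi had Usp7 at 303, 422 and 408, the heterozygous KO thymi at 472, 516 and 516, and the wild types at 676, 670, 594 and 589. The 3 groups did not overlap, and the group means of the knockouts were 59.7% and 79.2% of the wild-type mean. Wild types 3 and 4, whose columns carry the word het, lay below wild types 1 and 2 and above the heterozygous KO thymi. Heterozygous KO gave a log2 fold change of -0.43 against wild types 1 and 2 alone and -0.24 against 3 and 4 alone. This check therefore does not settle what het means in those columns. Homozygous KO against wild type gave a log2 fold change of -0.74 ± 0.11 (SE; adjusted p = 5.2e-04, edgeR), homozygous against heterozygous KO gave -0.41 ± 0.11 (adjusted p = 0.0288), and heterozygous KO against wild type gave -0.34 ± 0.11 (adjusted p = 0.608). The homozygous against heterozygous call was lost without heterozygous KO library 2 (-0.39, adjusted p = 0.0765) or library 3 (-0.39, adjusted p = 0.0915). The exact two-sided permutation p of these 3 comparisons was 0.0286, 0.1 and 0.0286, the smallest values that groups of these sizes allow.

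The library totals ranged from 39.8 to 122 M counts, with the wild types at 39.8 to 86.4 M, so that 3 counts corresponded to 0.0245 to 0.0753 CPM. Markers of the T lineage, such as the CD3 chains, summed to 4158 to 5335 CPM and markers of double-positive thymocytes to 8012 to 11058 CPM over the 10 libraries, so that the markers of the labelled tissue were present. The animal numbers in the titles fall into 44 to 51 and 56 to 63, and each of these ranges holds libraries of all 3 groups. A library holds the RNA of a whole organ, so fewer cells of a type and less RNA per cell cannot be told apart in any value below.

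Gimap proteins bind GTP through a shared AIG1-type domain and many sit on intracellular membranes, such as those of lysosomes, mitochondria and the endoplasmic reticulum. They are best known for their part in the survival and homeostasis of lymphocytes. In the thymus, several members are low in double-positive cells and higher once thymocytes have passed positive selection and become single-positive cells. The genes lie in 1 cluster, which in the mouse is on chromosome 6.

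In the GRCm38 annotation (GENCODE M21) the cluster runs from 48647234 to 48770851 on chromosome 6. Its order is Gimap8, Gimap9, Gimap4, Gimap6, Gimap7, Gimap1, Gimap5 and Gimap3, where Gimap6 and Gimap3 are on the minus strand and the other 6 on the plus strand. Gimap8 lies at 48647234 to 48660875, and the gap between it and Gimap9, its neighbour, is 15.3 kb. The counts themselves were made against an earlier build (mm9) by the submitters' notes and carry no coordinates. All 8 members are annotated as protein-coding. The promoter windows of RefSeq on GRCm38.p6, 250 bases before to 50 bases after a gene's start, were found for 8 of the 8 members. The windows below belong to 3 members with the lowest homozygous KO levels relative to wild type (Gimap3, Gimap4 and Gimap8) and to both members whose homozygous KO and wild-type levels overlapped (Gimap9 and Gimap1). Capitals mark each CANNTG, the E-box core that basic helix-loop-helix proteins recognise. Gimap8 has a further annotated start, which is not shown.
Gimap8, chr6:48646984-48647283, plus strand: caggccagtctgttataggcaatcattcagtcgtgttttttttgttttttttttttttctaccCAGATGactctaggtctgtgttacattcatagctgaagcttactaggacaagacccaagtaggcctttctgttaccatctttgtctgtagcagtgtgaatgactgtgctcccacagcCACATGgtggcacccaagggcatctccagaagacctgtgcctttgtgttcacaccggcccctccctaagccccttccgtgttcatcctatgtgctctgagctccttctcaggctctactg
Gimap4, chr6:48684328-48684627, plus strand: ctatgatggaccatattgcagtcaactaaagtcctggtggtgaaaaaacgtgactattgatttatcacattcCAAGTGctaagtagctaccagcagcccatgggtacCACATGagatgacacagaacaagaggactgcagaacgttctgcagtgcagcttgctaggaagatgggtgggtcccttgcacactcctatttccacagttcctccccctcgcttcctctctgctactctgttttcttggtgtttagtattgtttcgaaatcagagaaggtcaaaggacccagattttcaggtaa
Gimap3, chr6:48770802-48771101, minus strand: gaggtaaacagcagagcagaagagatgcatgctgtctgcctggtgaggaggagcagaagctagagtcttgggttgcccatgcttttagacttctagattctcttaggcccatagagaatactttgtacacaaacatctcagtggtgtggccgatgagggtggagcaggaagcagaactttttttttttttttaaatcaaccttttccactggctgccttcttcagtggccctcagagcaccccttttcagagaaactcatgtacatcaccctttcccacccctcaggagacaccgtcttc
Gimap9, chr6:48675885-48676184, plus strand: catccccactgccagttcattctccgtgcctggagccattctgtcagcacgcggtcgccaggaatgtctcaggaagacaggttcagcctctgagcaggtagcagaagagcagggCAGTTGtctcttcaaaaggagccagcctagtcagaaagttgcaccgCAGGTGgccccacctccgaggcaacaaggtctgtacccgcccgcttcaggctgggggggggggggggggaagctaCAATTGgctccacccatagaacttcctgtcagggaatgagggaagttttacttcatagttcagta
Gimap1, chr6:48738797-48739096, plus strand: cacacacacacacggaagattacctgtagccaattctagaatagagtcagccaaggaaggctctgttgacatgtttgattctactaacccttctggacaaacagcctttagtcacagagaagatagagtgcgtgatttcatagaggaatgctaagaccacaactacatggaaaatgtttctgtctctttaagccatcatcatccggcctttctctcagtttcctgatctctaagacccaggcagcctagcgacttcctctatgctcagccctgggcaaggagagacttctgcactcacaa

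The letters CANNTG, which read the same on both strands, stood in a window of 6 of the 8 members (not in Gimap1 or Gimap3) and in 72.3% of the 32851 promoter windows of the mouse genome. The E-box CAGCTG stood in none of the 8 and in 16.3% of all windows. CAGGTG, searched on both strands, stood in the window of Gimap9 only and in 20.2% of all windows. TGTGGT, a core bound by RUNX factors, was in 3 of 8 (Gimap4, Gimap7 and Gimap1) against 16.8%, and AGGAAG, a core bound by ETS factors, was in 7 of 8 (not in Gimap6) against 35.4%. The match of Gimap8 lies in the window of its other start and not in the one shown, and a member with 2 windows has more chances of a match than the single windows behind these shares. CAGCTG and CAGGTG are forms of CANNTG, and the TGTGGT of Gimap4 overlaps a CANNTG. Neither the presence nor the absence of CANNTG separated Gimap3, Gimap4 and Gimap8 from Gimap9 and Gimap1.

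Per exon length, the family's transcripts in the wild types were mostly those of Gimap9 and Gimap6. RPKM (CPM per kilobase of annotated exon) averaged 45.4 ± 7.06 (SD, n = 4) for Gimap9 and 44.8 ± 6.06 for Gimap6, and these neighbours in the order did not differ beyond their spread. Gimap4 followed at 24.0 ± 5.91 RPKM, Gimap8 at 19.0 ± 3.74 RPKM and Gimap1 at 14.0 ± 1.81 RPKM. Gimap4 was above Gimap8 in 4 of the 4 wild types, although the ranges of both over the animals overlapped, and Gimap8 was above Gimap1 in 4 of 4. Gimap3 (3.11 ± 0.82 RPKM), Gimap5 (2.72 ± 0.48 RPKM) and Gimap7 (1.22 ± 0.26 RPKM) were low, and the first pair of these did not differ beyond their spread. With the longest transcript as the length, Gimap1 moved ahead of Gimap4 and Gimap8 (26.6, 24.4 and 22.3 RPKM) and Gimap5 ahead of Gimap3 (4.84 and 3.74 RPKM).

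The members divided by how far the homozygous KO libraries lay from the others. Gimap3, Gimap4 and Gimap8 were at 19.3% to 27.5% of the wild-type mean, Gimap5, Gimap6 and Gimap7 at 47.4% to 54.4%, and Gimap1 and Gimap9 at 86.3% and 88.8%. In the heterozygous KO libraries the 8 members lay between 80.2% and 92.7% of the wild-type mean.

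**Figure D1:**
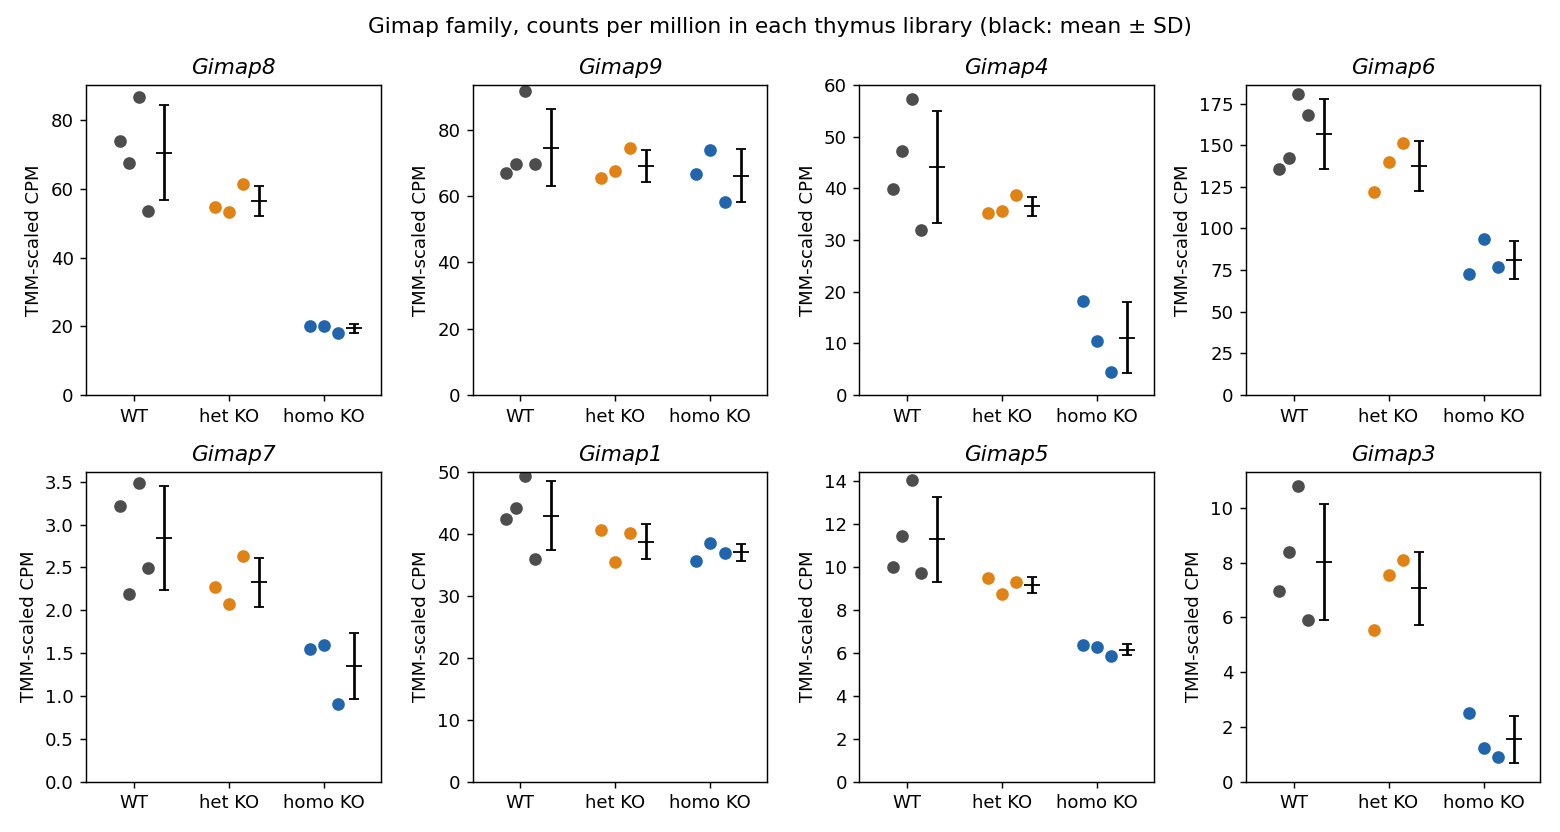
Each panel plots a Gimap member, with TMM-scaled CPM from 0 on the vertical axis and the wild-type (WT), heterozygous KO and homozygous KO libraries as points, beside the mean ± SD in black. The homozygous KO libraries are separate from both other groups for 6 members, whereas for Gimap9 and Gimap1 the 3 groups overlap.

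Gimap8, the largest of the Gimap proteins and the one with several GTP-binding domains in tandem, was at 19.9, 20.1 and 18.0 CPM in homozygous KO thymi. It was at 54.7, 53.4 and 61.4 CPM in heterozygous KO thymi and at 74.0, 67.4, 86.8 and 53.6 CPM in the wild types. The homozygous KO libraries were close to each other and far below the rest, and the heterozygous KO range overlapped the lower part of the wild-type range. As a description, the log2 fold change was -1.86 ± 0.14 (SE) against wild type and -1.55 ± 0.14 against heterozygous KO. Heterozygous KO against wild type gave -0.32 ± 0.13 (edgeR, adjusted p = 0.666), which was not called.

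Gimap4, a protein reported to hasten the death of T cells, was at 18.2, 10.5 and 4.51 CPM in homozygous KO thymi. The heterozygous KO thymi were at 35.3, 35.5 and 38.7 CPM, and the wild types at 39.8, 47.2, 57.4 and 31.9 CPM. The homozygous KO libraries were apart from the other groups and spread widely, with library 3 the lowest. Against wild type the log2 fold change was -1.99 ± 0.37, and Gimap4 fell by 1.72 ± 0.38 (adjusted p = 0.00971) on the log2 scale against heterozygous KO. Within the animals numbered 44 to 51, with 1 library in each arm, the latter difference was -0.95, and within 56 to 63, with 2 in each, it was -2.43.

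Gimap3, whose protein sits on membranes of the endoplasmic reticulum and mitochondria, had the same order of the homozygous KO libraries, with 2.53, 1.23 and 0.90 CPM. It was at 5.55, 7.54 and 8.08 CPM in heterozygous KO thymi and at 6.97, 8.40, 10.8 and 5.90 CPM in the wild types. Both latter groups overlapped, and all of their values were above the highest homozygous KO value. Homozygous KO against wild type was -2.36 ± 0.34, and Gimap3 fell by 2.18 ± 0.35 (adjusted p = 0.00163) against heterozygous KO. The difference from heterozygous KO was -1.13 within animals 44 to 51 and -2.88 within animals 56 to 63.

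Gimap6, which binds an ATG8-family protein of autophagy, was the highest member by CPM. It was at 72.4, 93.9 and 76.8 CPM in homozygous KO thymi, at 122, 140 and 151 CPM in heterozygous KO thymi and at 136, 142, 181 and 168 CPM in the wild types. The homozygous KO libraries lay below all others. The log2 fold change was -0.95 ± 0.12 against wild type, and Gimap6 fell by 0.76 ± 0.13 (adjusted p = 0.00193) against heterozygous KO, with -0.75 and -0.78 within the lower and the higher animal numbers.

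Gimap5, a lysosomal member whose loss in mice and rats causes a severe shortage of T cells, was at 6.33, 6.24 and 5.84 CPM in homozygous KO thymi. It was at 9.48, 8.75 and 9.27 CPM in heterozygous KO thymi and at 9.99, 11.4, 14.0 and 9.69 CPM in the wild types. Its 3 groups did not overlap, in the order homozygous KO, heterozygous KO and wild type. Its log2 fold change from wild type was -0.88 ± 0.13. Against heterozygous KO Gimap5 fell by 0.58 ± 0.14 (adjusted p = 0.0150), a call that was lost without homozygous KO library 3 (-0.54, adjusted p = 0.0536) or heterozygous KO library 3 (-0.57, adjusted p = 0.0517).

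Gimap7 was the lowest member in the wild types. It had 1.54, 1.59 and 0.91 CPM in homozygous KO thymi, 2.27, 2.07 and 2.64 CPM in heterozygous KO thymi, and 3.22, 2.19, 3.49 and 2.49 CPM in the wild types. The homozygous KO libraries were below the rest, with library 3 lowest. The log2 fold change was -1.08 ± 0.25 against wild type. Against heterozygous KO it was -0.78 ± 0.26 (adjusted p = 0.0595), which missed the threshold in edgeR and passed it in DESeq2 (adjusted p = 0.0199).

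Gimap1, which mature T and B cells need to develop, was at 35.7, 38.5 and 37.0 CPM in homozygous KO thymi, at 40.6, 35.5 and 40.1 CPM in heterozygous KO thymi, and at 42.3, 44.1, 49.3 and 35.9 CPM in the wild types. The groups overlapped. The log2 fold change was -0.21 ± 0.10 against wild type and -0.06 ± 0.10 (adjusted p = 0.751) against heterozygous KO. The difference from wild type was -0.34 within animals 44 to 51 and 0.07 within animals 56 to 63, where 1 wild type entered.

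Gimap9, the gene next to Gimap8, was at 66.6, 73.8 and 58.1 CPM in homozygous KO thymi, at 65.3, 67.5 and 74.4 CPM in heterozygous KO thymi, and at 67.0, 69.6, 91.8 and 69.8 CPM in the wild types. Wild type 3 stood above the other 9 libraries, and the remainder of the groups overlapped. The log2 fold change was -0.17 ± 0.12 against wild type and -0.06 ± 0.12 (adjusted p = 0.801) against heterozygous KO.

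The count ratio of the neighbours Gimap8 and Gimap9, which does not depend on how libraries are scaled, was 0.299, 0.273 and 0.309 in the homozygous KO libraries. It was 0.837, 0.791 and 0.825 in the heterozygous KO libraries and 1.11, 0.969, 0.946 and 0.768 in the wild types. The homozygous KO ratios lay below all others, which the choice of Gimap8 for its low counts in these libraries makes a description only. The ratio of Gimap9 to Gimap1 was 1.57 to 1.92 in the homozygous KO, 1.61 to 1.90 in the heterozygous KO and 1.58 to 1.95 in the wild-type libraries, which overlap.

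Counted over the family, 6 of the 8 members were called lower in homozygous KO against wild type at an adjusted p under 0.05, beside 13.2% of all tested genes, and the groups of the same 6 did not overlap, beside 16.4% of all genes. This comparison chose Gimap8, and nothing is read from these counts. Of all calls in it 51.4% were lower with TMM, 71.0% with library totals alone (median of all genes -0.11) and 89.9% scaled to the summed counts of T-lineage markers (median -0.26). With wild types 1 and 2 alone, the median over the 8 members was -0.90, and with wild types 3 and 4 alone it was -1.13. A further member, Gimap1, was called with library totals alone, with a block for replicate number and without wild type 4, which gave 7 of 8. Of the 7 members other than Gimap8, 4 (Gimap3, Gimap4, Gimap5 and Gimap6) were called lower in homozygous against heterozygous KO, where 9.5% of all tested genes were called lower. The median log2 fold change of the 7 was -0.76, beside 0.0034 over all genes. The groups of 6 of the 8 members did not overlap in this comparison, beside 16.8% of all genes. This comparison uses the same homozygous KO libraries as the one against wild type. In this comparison Gimap1 and Gimap9 were not called with TMM, with DESeq2's size factors or with library totals alone, but scaled to the summed counts of the T-lineage markers both were called lower against heterozygous KO (-0.31, adjusted p = 0.0386, and -0.30, adjusted p = 0.0406). That scaling, added after the data were seen, moved the median of all genes to -0.24 in this comparison and raised the lower share of all calls from 55.4% to 89.9%. It called 5004 of 19511 genes lower, beside 1853 in the main fit. With library totals alone the median was -0.08 and the lower share 73.1%.

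Heterozygous KO against wild type called none of the 8 members in edgeR or in DESeq2, in which Gimap7 had no adjusted p. In edgeR 0.0154% of all tested genes were called in this comparison, 0% lower. All 8 log2 fold changes were below 0, from -0.11 for Gimap9 to -0.32 for Gimap8 with a median of -0.23, whereas 51.6% of all genes were below 0 and their median was -0.01. At an unadjusted p under 0.05 stood 2 members, Gimap8 and Gimap5 (-0.30 ± 0.13, edgeR, adjusted p = 0.681), beside 7.28% of all genes. The groups of Gimap5 alone did not overlap, beside 4.27% of all genes. The members' values are not independent of each other, since wild type 3 was the highest wild type for all 8. Without wild type 3 their median was -0.12. Within animals 56 to 63, where 1 wild type entered, Gimap8 (0.10), Gimap9 (0.02), Gimap4 (0.22), Gimap1 (0.07) and Gimap3 (0.40) were above 0. Gimap6 (-0.21), Gimap5 (-0.10) and Gimap7 (-0.09) were below 0 there. Within animals 44 to 51, where 1 heterozygous KO library entered, all members were below 0, from -0.63 for Gimap3 to -0.15 for Gimap1. With the animal-number range as a term, Gimap4 and Gimap3 were above 0 (0.041 and 0.071), and without wild type 3 so was Gimap9 (0.0060). With a term for 2 classes of library by expression of a sex-linked gene, Gimap4 was at -0.81 and the members' median was -0.33. All heterozygous KO libraries and wild type 1 were in the low class, and wild types 2, 3 and 4 were in the high class. Class and genotype can therefore hardly be told apart in this comparison. Homozygous KO libraries 1 and 2 were in the low class and library 3 in the high class. The classes were thus uneven in the comparisons of the homozygous KO too.

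**Figure D2:**
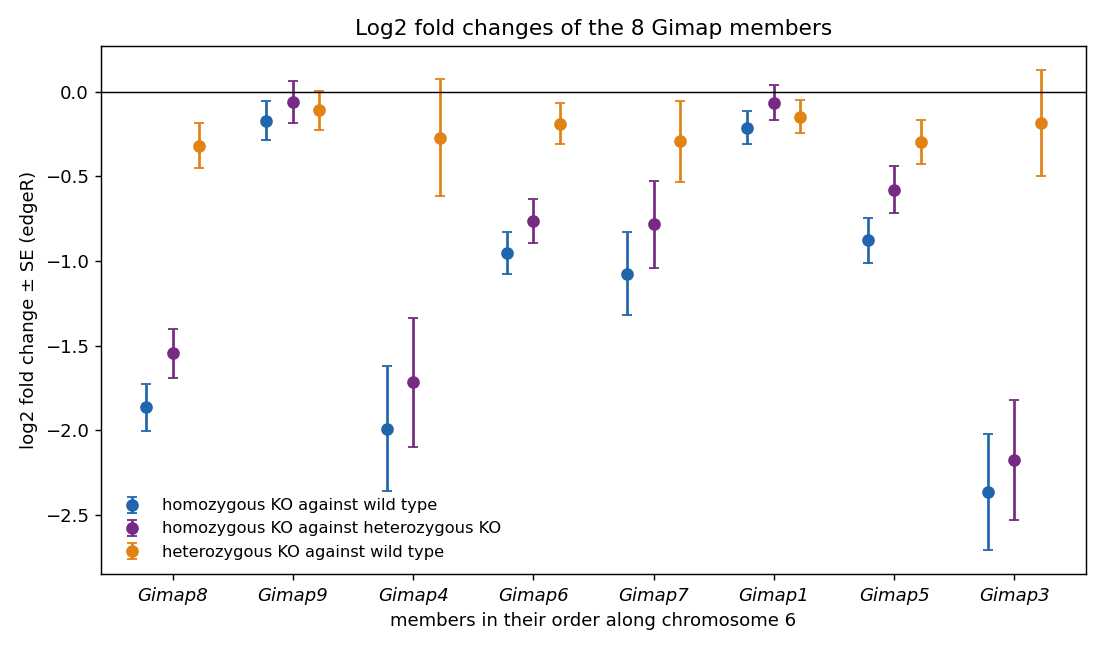
The log2 fold change ± SE from edgeR (vertical axis) is plotted for each member in chromosomal order (horizontal axis) and for 3 comparisons by colour. Gimap8, Gimap4 and Gimap3 are lowest in both comparisons of the homozygous KO, Gimap9 and Gimap1 are near 0, and heterozygous KO against wild type runs from -0.32 to -0.11.

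Summed over the family, RPKM was 89.5 ± 9.78 (SD, n = 3) in the homozygous KO, 135 ± 9.58 in the heterozygous KO and 154 ± 22.4 in the wild-type libraries. The homozygous KO ranges of Gimap9, Gimap1, Gimap8, Gimap4 and Gimap3 in this sum did not overlap those of the other groups. Gimap9 made up 44.4% to 45.8% of it in the homozygous KO libraries, 31.1% to 31.3% in the heterozygous KO and 28.6% to 30.4% in the wild types. Gimap1 made up 12.7% to 15.2%, 8.73% to 10.4% and 8.35% to 9.73%. Conversely, Gimap8 made up 5.55% to 6.16%, 10.9% to 11.6% and 10.4% to 14.1%, and Gimap4 3.11% to 10.9%, 14.4% to 15.1% and 12.4% to 17.3%. Gimap3 made up 0.44% to 1.07%, 1.69% to 2.21% and 1.64% to 2.24%. The ranges of Gimap6 overlapped, at 22.7% to 27.9%, 27.3% to 30.2% and 27.4% to 34.4%, as did those of Gimap5 and Gimap7. The shares of a library add up to the whole, so Gimap9 and Gimap1 gain share where other members fall. The CPM of Gimap9 and Gimap1 overlapped between the groups. As Gimap8 was chosen for its fall, the shares are a description only.

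**Figure D3:**
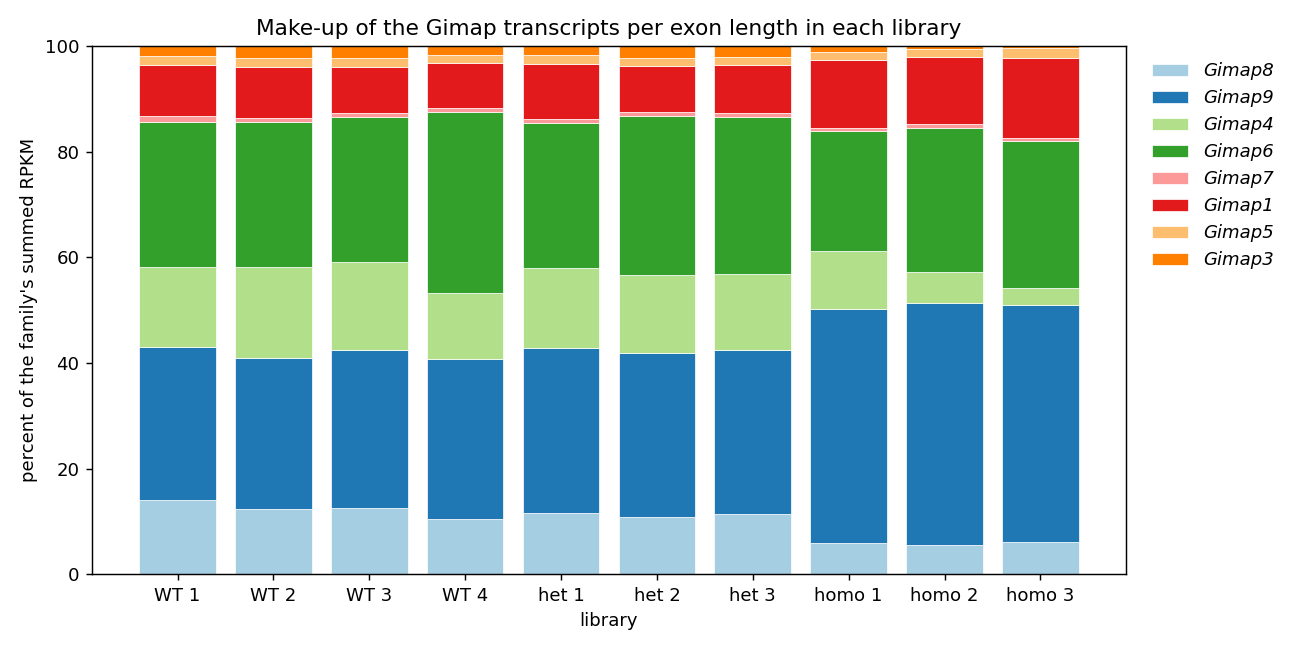
Each bar is a library, and its coloured segments give the percent of the family's summed RPKM that each member contributes. In the homozygous KO libraries the Gimap9 segment spans 44.4% to 45.8% and the Gimap8 segment 5.55% to 6.16%, against 28.6% to 30.4% and 10.4% to 14.1% in the wild types. Segments add up to the whole bar, so a larger Gimap9 segment goes with smaller other segments.

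Over the 28 pairs of members, Pearson's r of log2 CPM was 0.51 to 0.98 across the 10 libraries and 0.03 to 0.91 (median 0.57) on deviations from the group means. These are descriptions, since all members share library and scaling. Of 9811 candidate genes, those most like Gimap8 across the 10 libraries were Bmf (r = 0.996), Calcrl (0.993), Als2cl (0.991), Maf (0.990) and Dlg4 (0.990). This ranking includes the homozygous KO values for which Gimap8 was chosen, so it is a description only. On deviations from the group means the r of Bmf, a pro-apoptotic BH3-only gene, with Gimap8 was 0.966. For the other genes listed with Bmf this r was lower, from 0.766 (Maf) to 0.831 (Calcrl). Bmf averaged 135 CPM in the heterozygous KO and 145 CPM in the wild types, and was lower in the homozygous KO than in the wild types by a log2 fold change of -1.25. Most like the mean of the 8 members were Map3k14 (0.994), which encodes the kinase NIK, Cyth4 (0.988), Fam102a (0.988), Cnr2 (0.987) and the chemokine receptor gene Ccr4 (0.987).

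The cluster also holds Gimap1os, an RNA gene that overlaps Gimap1 on the opposite strand. Gimap1os was at 4.61, 4.998 and 4.61 CPM in homozygous KO thymi, at 8.01, 9.04 and 10.9 CPM in heterozygous KO thymi and at 8.62, 8.98, 12.6 and 10.5 CPM in the wild types. Its homozygous KO libraries lay below all others, whereas those of Gimap1 overlapped. Gimap1os fell by 1.11 ± 0.16 (adjusted p = 4.6e-04) against wild type and by 0.97 ± 0.16 (adjusted p = 0.00192) against heterozygous KO. Of all 50-base stretches of Gimap1 transcripts, 32.4% also occur in Gimap1os on either strand. The kit marks the strand, but the setting used in counting is not given in the sources used here, so the split of reads between both genes is uncertain. Gimap3 and Gimap5 share 7.52% and 4.53% of their stretches with each other, and Gimap8, Gimap9 and Gimap4 share none with any other annotated gene.

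Lower levels were not limited to the cluster's own genes. Of the 10 protein-coding genes on each side, 14 were tested, and in homozygous KO against wild type 7 of them were called lower and 2 higher, beside 13.2% and 12.5% of all tested genes. Adjacent to the Gimap3 end, Tmem176b fell by 1.90 ± 0.21 (adjusted p = 8.7e-05) and Tmem176a by 1.69 ± 0.13 (adjusted p = 7.2e-06). Both encode membrane proteins known from dendritic cells. On the Gimap8 side, AI854703 fell by 1.04 ± 0.26 (adjusted p = 0.0135), a call lost without homozygous KO library 3 (-0.86), and the next gene, Zfp775, was at -0.06 ± 0.11 (adjusted p = 0.741). Further out, Zfp467 fell by 1.60, Sspo by 2.12, Repin1 by 0.67 and Lrrc61 by 0.42. Igf2bp3, an RNA-binding protein gene of fetal cells, rose by 0.33 ± 0.05 (adjusted p = 0.00103), and Gpnmb, a gene of macrophages, by 1.20 ± 0.37 (adjusted p = 0.0341). The call of Gpnmb was lost without homozygous KO library 2 (0.94) or 3 (0.94) or any 1 of the 4 wild types (1.18 to 1.22), and with a block for replicate number (1.09, edgeR adjusted p = 0.106) or animal number (0.92, adjusted p = 0.129). Called genes and genes near 0 were interspersed along the region, within the cluster and outside it.

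**Figure D4:**
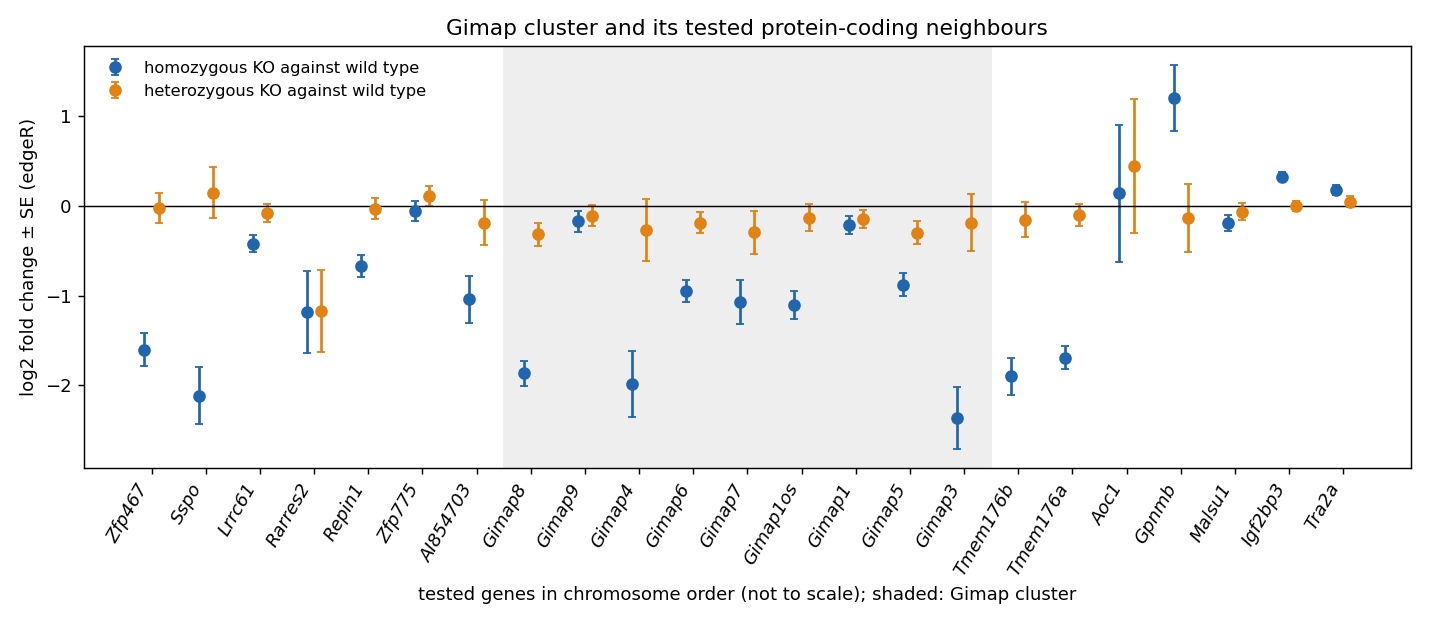
Tested genes of the Gimap cluster (shaded) and of its flanks are in chromosomal order on the horizontal axis, with the log2 fold change ± SE (edgeR) on the vertical axis for homozygous KO (blue) and heterozygous KO (orange) against wild type. Gimap9 and Gimap1 (-0.17 and -0.21) sit between members below -0.80 in homozygous KO, and the flanking Tmem176b and Tmem176a are at -1.90 and -1.69.

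Genes whose products have been reported to bind or act with Gimap proteins, the BCL2 family, the ATG8 family of autophagy and Gsk3b, were followed as a list. Of 13 tested, none was called lower and 4 were called higher in homozygous KO against wild type, beside 13.2% and 12.5% of all tested genes. Their median log2 fold change was 0.05. No partner was lower at an unadjusted p under 0.05 or in DESeq2 either. Bax, a p53-responsive death effector, rose by 1.36 ± 0.08 (adjusted p = 1.8e-06), and Bcl2, the survival gene, was lowest at -0.20 ± 0.13 (adjusted p = 0.275) and was called lower without homozygous KO library 2 (-0.37). The number called higher was 2 without homozygous KO library 2, wild type 1 or wild type 2.

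Other GTPases of immune cells, the interferon-inducible GBP, IRG and MX families and Gvin1, were followed beside the members. Of 18 listed genes 16 were tested, and 12 were called lower and 0 higher in homozygous KO against wild type, beside 13.2% of all tested genes lower, with a median of -0.84. They ranged from Mx2, an antiviral gene (-2.23 ± 0.39, adjusted p = 0.00178), to Igtp (-0.27 ± 0.12, adjusted p = 0.136). Against heterozygous KO 11 of the 16 were called lower, beside 9.5% of all tested genes, with a median of -0.78, and between heterozygous KO and wild type none was called, with a median of -0.08. Their summed level was 374 to 405 CPM in the homozygous KO, 558 to 602 CPM in the heterozygous KO and 573 to 723 CPM in the wild types.

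Markers of mature single-positive thymocytes, the stage known for high Gimap levels, were followed for the cell make-up of the libraries. In homozygous KO against wild type 8 of 9 were called lower and none higher, beside 13.2% of all tested genes lower, with a median of -1.97. Ccr7, a chemokine receptor of mature thymocytes, fell by 2.96 ± 0.71 (adjusted p = 0.0109), with -5.02 without homozygous KO library 1, and its call was lost with wild types 1 and 2 alone (-2.73, adjusted p = 0.0518). Their summed level was 274, 196 and 174 CPM in homozygous KO thymi, 417 to 438 CPM in the heterozygous KO and 379 to 535 CPM in the wild types, and none of the 9 was at 0. The order of the homozygous KO libraries in this sum was that of Gimap4 and Gimap3, whereas Gimap8 was nearly level over these libraries. Among the wild types, library 3 was highest and library 4 lowest in the sum, and the same held for Gimap8, Gimap4, Gimap1, Gimap5 and Gimap3. The part of these cells in the members' levels was not tested.

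Markers of other lymphoid and myeloid cells were counted too. In homozygous KO against wild type 13.2% of all tested genes were called lower and 12.5% higher, the shares to set beside each count here. Of 9 B-cell markers 7 were called lower and none higher in homozygous KO against wild type (median -1.79), and the homozygous KO libraries held 0 to 3 counts of Igkc and 0 to 1 of Ms4a1. With the floor of 3 counts per library, Igkc was at least 219-fold lower than in the wild types. Ighm, which thymocytes also transcribe, was at -0.02, and the summed level of the list was 300.0 to 344 CPM in the homozygous KO, 355 to 378 CPM in the heterozygous KO and 339 to 405 CPM in the wild types. Of 7 dendritic-cell markers 7 were called lower (median -1.71, H2-Aa highest at -1.34), the plasmacytoid marker Siglech was at 0 to 2 counts and at least 74.9-fold lower, and the sum was 43.9 to 89.0, 155 to 228 and 145 to 201 CPM. Of 7 NK-cell markers 4 were called lower, from Eomes at -3.11 to Klrd1 at 0.38, with sums of 54.1 to 93.3, 90.1 to 99.3 and 83.4 to 91.2 CPM. The part of these cells in the members' levels was not tested either.

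Beside the counts of this paragraph stand the shares of all tested genes, 13.2% lower and 12.5% higher in homozygous KO against wild type. Of 9 T-lineage markers, none was called lower with TMM and 3 were called higher, with a median of 0.11, from Cd3e at -0.08 to Thy1 at 0.48. With library totals alone Cd3e was called lower (-0.18). Their sum was 4975 to 5335 CPM in the homozygous KO, above the 4158 to 4514 CPM of the other libraries. Double-positive markers were mixed, with 3 of 9 lower and 2 higher (median 0.02), from the recombinase gene Rag1 at -0.85 to Arpp21 at 0.38. Their sum was 8012 to 8340 CPM in the homozygous KO, 9466 to 10180 CPM in the heterozygous KO and 9712 to 11058 CPM in the wild types. Of 8 double-negative markers 3 were lower and 1 was higher (median -0.31), from Bcl11a at -3.16 to Dtx1 at 1.60. Of 8 myeloid markers 4 were lower and 2 higher (median -0.10), from Csf1r at -1.45 to S100a8 at 3.78, with sums of 63.4 to 219, 56.6 to 74.1 and 69.5 to 80.7 CPM.

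Stromal and erythroid lists had calls in both directions or higher only. The shares of all tested genes were again 13.2% lower and 12.5% higher. In lists this short, 1 call in a direction lies near these shares, and nothing is read from it. Endothelium, which can express Gimap genes, had 2 lower and 1 higher of 9 tested, from Eng at -1.04 to Tie1 at 2.50, and its sum overlapped between the groups at 166 to 178, 160 to 171 and 168 to 185 CPM. Of 6 epithelial markers 1 was higher (Krt5 at 2.77) and none lower, with Epcam lowest at -0.37. Of 7 fibroblast markers 4 were higher and 1 lower, from Pdgfrb at -0.85 to Lum at 2.03, and of 7 erythroid markers 1 was higher, from Hba-a1 at 0.41 to Klf1 at 2.63. The calls of Tie1, Lum and Pdgfrb were lost without at least 1 of homozygous KO libraries 2 and 3 (1.56 for Tie1 without library 2, and 1.74 for Lum and -0.80 for Pdgfrb without library 3). Leaving out a single wild type also lost these calls: 3 or 4 for Tie1, 1, 2 or 4 for Lum and 1 or 3 for Pdgfrb. Tie1 and Lum also lost them with a block for replicate number (edgeR adjusted p = 0.0863 and 0.0734) or for animal number (0.0657 and 0.0627). For each of the lists with no call in 1 direction in homozygous KO against wild type, that direction also held 0 genes at an unadjusted p under 0.05 in edgeR and 0 in DESeq2. In heterozygous KO against wild type 0 of the 124 listed genes were called in edgeR, with 6 lower and 0 higher at an unadjusted p under 0.05. DESeq2 called 0 of those it adjusted, and 25 had no adjusted p there.

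**Figure D5:**
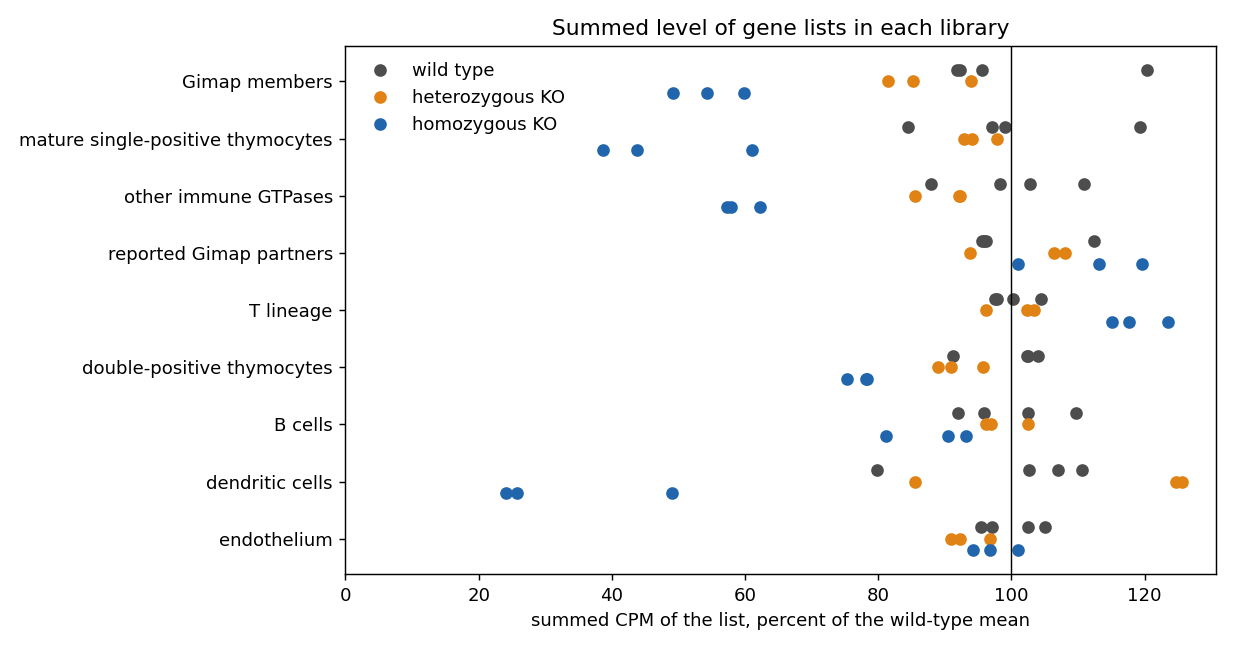
Points give the summed CPM of a gene list in each library as a percent of its wild-type mean (horizontal axis, from 0), with lists on the vertical axis and groups by colour. In the homozygous KO libraries the Gimap members are at 49.2% to 59.8%, mature single-positive markers at 38.7% to 61.1% and other immune GTPases at 57.4% to 62.2%, whereas T-lineage markers are at 115% to 123.5%.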

How the data were processed

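RNA was extracted from thymus of 10 mice, depleted of ribosomal RNA, made into stranded libraries (KAPA RNA HyperPrep with RiboErase) and sequenced on an Illumina instrument, per the labels. The authors deposited 1 table of raw counts per gene, with no normalization. The submitters' processing notes name CASAVA, STAR 2.4.1d, HTSeq 0.6.1p1 and the build mm9 (NCBIM37). The annotation release, the strand setting and the handling of shared reads are not given in the sources used here. Columns were matched to samples through the numbers that titles and column names share, although 2 wild-type columns add the word het, and features without an Ensembl identifier (1.74% to 2.29% of counts) stayed in the totals and the tests.

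Symbols, positions and exon lengths came from GENCODE M21 (GRCm38), which matched 30221 of 34467 Ensembl identifiers. Counts were tested with edgeR 4.0.16 (R 4.3.3) in 1 fit of all 10 libraries: TMM scaling, filterByExpr, and the quasi-likelihood test with Benjamini-Hochberg adjustment over 19511 genes. A gene was called at an adjusted p under 0.05. The SE is the absolute log2 fold change divided by the square root of F. The p-values measure the spread between animals of a group. Floors cover counting error only. The scripts were tested on simulated data. Within groups no pair of libraries agreed within sampling noise (chi-square per degree of freedom 12.6 to 108 over 12 pairs).

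The members and gene lists were chosen with earlier results of these data known, and no list or member was dropped for its value. Named were all members, Usp7, other genes inside the cluster, called neighbours, the highest and the lowest gene of each list (1 such gene is not reported here), and the 5 genes most correlated with Gimap8 and with the members' mean, where candidates had a mean log2 CPM of 2 or more. Alternatives were DESeq2 1.42.0, other scalings (including to the T-lineage markers, added after seeing the data), no filter, blocks for replicate number and for animal number, a term for 2 classes of library by expression of a sex-linked gene, only the 2 groups compared, either form of wild-type title (1 or 2 wt words), and leaving out each library.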

Additional observations from a re-analysis of the deposited data

Results flagged for a closer look

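Over the 4 wild types, the gap between an extreme library and its nearest neighbour, divided by the whole range, was above Dixon's 95% critical value for 4 of 25 quantities tested, and chance flags about 1 in 20. For Gimap9 the ratio was 0.887, with wild type 3 at 91.8 CPM and the other wild types at 67.0 to 69.8 CPM. For the summed CPM of the 8 Gimap members it was 0.871, with wild type 3 at 494 CPM and the others at 377 to 392 CPM. For the summed CPM of the reported Gimap partners it was 0.964, with wild type 4 highest at 1620 CPM. For the summed CPM of the double-positive markers it was 0.872, with wild type 4 lowest at 9712 CPM. All flags thus come from wild types 3 and 4, and Gimap9 is part of the members' sum, so the flags are not independent.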

How the results depend on the processing

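The library count limits precision: groups hold 3 or 4 animals, wild types 1 and 2 are the shallowest libraries, and a member as low as Gimap7 rests on 82 to 310 counts. The causes of the changes below were not tested. Of 1714 values under the alternatives, for 89 results, 1618 kept their direction and, where tested, their side of the threshold, or, where given without a test, stayed within the spread between libraries. The members called were 5 in homozygous against heterozygous KO (4 to 5 with 1 library left out, 8 scaled to the T-lineage markers), 6 in homozygous KO against wild type (6 to 8 over all alternatives) and 0 in heterozygous KO against wild type under each of 21 alternatives. The counts of 5 and 6 include Gimap8, which was chosen for its low homozygous KO values and is a description only. Beside the 8 with T-lineage scaling, 5004 of 19511 genes were called lower between the knockouts and 6405 in homozygous KO against wild type. Beside the 5 and 6, 9.5% and 13.2% of all tested genes were called lower in the main fit. Between the knockouts 4 of the 7 other members were called there, and nothing is read from the 6 against wild type. The labels do not say that a shared replicate number marks a shared litter or day, and not every same-numbered pair deviated together (9 pairs): r was 0.101 to 0.200 for number 1, whose animals all lie in 44 to 51, and -0.091 to 0.091 for numbers 2 and 3. A replicate block in the fit left 7 members called in homozygous KO and 0 in heterozygous KO, each against wild type, and 5 between the knockouts. The partners called higher (4) were 2 with library totals alone, with the sex-linked term and with only the 2 groups compared, 1 scaled to the T-lineage markers and with the wild types of 1 wt word, and 2 to 4 with 1 library left out. Usp7 in homozygous against heterozygous KO lost its call with the sex-linked term (-0.41) and with only the 2 groups compared (-0.42), and ranged from -0.50 to -0.28 with 1 library left out. Signs turned for several values: in heterozygous KO against wild type, Gimap9 was 0.017 with the wild types of 2 wt words (-0.17 to 0.0060 with 1 library left out), and Gimap4 was 0.041 and Gimap3 0.071 with the animal-number block. In homozygous against heterozygous KO, Gimap9 was -0.15 to 0.023 with 1 library left out. In homozygous KO against wild type, Hba-a1 was -0.060 with the sex-linked term and -0.054 with the wild types of 1 wt word, Klrd1 was -0.023 with the sex-linked term and -0.066 with the wild types of 2 wt words, and Ighm was -0.066 to 0.041 with 1 library left out. Hba-a1 and Klrd1 were unstable and reached 1.09 and 0.93 under other alternatives. Gimap7 in homozygous against heterozygous KO passed the threshold with library totals alone, the animal-number block, the T-lineage scaling and DESeq2.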
